A study of Glycine max with 24 samples.

Results

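The transcripts described here encode proteins of the soybean seed cell wall and the enzymes that build or remodel it. A probeset, the group of short probes that reads 1 transcript, was taken as a member when the description given to it in the study's lists of changed probesets contained expansin, extensin, xyloglucan, pectin, pectate, polygalacturonase, cellulose, cell wall, proline-rich or arabinogalactan. This gave 62 of the 37694 soybean probesets on the array, out of 1681 with a description that could be read. By wall component they comprised 8 proline-rich proteins, 15 extensins and other hydroxyproline-rich proteins, 4 arabinogalactan proteins, 10 xyloglucan enzymes, 12 pectin enzymes, 3 cellulose synthases or relatives, 3 expansins and 7 probesets in which the word stood only in a secondary description of a protein with another name. Most members stood in those lists because their signal differed between stages on these same arrays, so the counts and directions of stage changes are a description. The lists of LoPro were more completely readable than those of HiPro. The list of falls shared by both lines was read in 431 rows, with 8 unread, and that of shared rises in 435, with 461 unread. Members that rose are therefore under-represented. No member came from the list of differences between the 2 lines. The lists of stage 3 against stage 1 were read in 612 rows for LoPro, with 0 unread, and in 57 for HiPro, with 659 unread. Members with a large LoPro change were thus easier to take in, and the comparison of the lines was not free of the choice.

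RNA came from whole developing seeds of 2 near-isogenic Glycine max lines, LoPro and HiPro. HiPro carries the high-protein allele from Glycine soja PI468916 at the seed protein locus of linkage group I, now chromosome 20, and LoPro carries the allele of the Glycine max parent there. Both descend from 1 backcross plant that was heterozygous at the locus, so the 2 lines stand for 1 pair and any other donor segment that still segregated goes with the locus. Plants grew in chambers, in soil given a Bradyrhizobium inoculant. Seeds were staged by fresh weight: 25 to 50 mg (stage 1), above 50 to 100 mg (stage 2), above 100 to 200 mg (stage 3) and above 200 to 300 mg (stage 4). Each of the 8 groups held 3 arrays, each array read seed pooled from 3 plants, and a replicate's 4 stages were taken from 1 pool. No control treatment was part of the design, and stage 1 served as the baseline.

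A growing plant cell is held by a wall of cellulose fibres tied together by xyloglucan and embedded in pectin, with structural proteins that can be cross-linked into it. Expansins and xyloglucan endotransglucosylases loosen or rejoin this network while a cell expands, pectinesterases remove methyl groups from pectin and so alter its stiffness, and proline-rich proteins and extensins become insoluble in the wall as it is strengthened. In a legume seed the embryo cotyledons first divide, then expand as they take up storage protein and oil, inside a seed coat whose cells thicken their own walls. Whole seeds hold both tissues, and fewer cells of a type cannot be told apart here from less RNA per cell.

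Marker lists are given by stage as a description. Most of their probesets were found through descriptions in the study's lists of changed probesets, so their directions were largely set by that choice. By the call defined below, 11.3% of all probesets rose and 10.4% fell in LoPro from stage 1 to stage 4. In HiPro 10.7% rose and 13.5% fell. Of 23 probesets for cotyledon reserves (beta-conglycinin, glycinin, oleosin), 21 rose in LoPro and 22 in HiPro from stage 1 to stage 4. Of 31 for dividing cells (a description with histone, cyclin or kinesin), 26 fell in each line, and of 8 for the seed coat 3 rose and 5 fell in each line. The words for dividing cells also took in some proteins of other kinds, such as cyclin-like F-box proteins. The summed reserve signal of HiPro stage 3 replicate 3 was 252445 against 325510 to 390714 on the other 5 stage 3 arrays, and its dividing-cell sum of 21357 lay above their 15602 to 19531. At stage 1, the baseline of every change, LoPro replicates 1 and 2 had reserve sums of 180997 and 156113 against 76896 to 87196 on the other 4 arrays, and without either of them 58 and 57 members were called at stage 4 in LoPro. At stage 2, LoPro replicate 3 had a reserve sum of 141946 against 191125 and 262094 on the other 2 LoPro arrays. The control probe pairs read at the 3′ and 5′ ends of the same transcript shifted by 0.18 (actin), -0.78 (ubiquitin), -0.89 (P450), -0.54 (GlutTrans) and -4.85 (sucrose-binding protein) in their log2 3′ minus 5′ difference from stage 1 to 4 in LoPro, and by -0.0045, -2.17, -0.56, -0.49 and -5.46 in HiPro. The part of tissue makeup and RNA state in the results below was not tested.

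Most of the 62 listed wall probesets declined during seed fill. A probeset was called changed at a Benjamini-Hochberg adjusted p under 0.05 over all 37694 probesets and at least 1.5-fold, by limma on log2 signal with n = 3 arrays per group. Between stage 1 and stage 4, 59 of 62 members were called in LoPro, where 21.7% of all probesets were called. Of these 20 were higher (background 11.3%) and 39 lower (10.4%). In HiPro 56 were called against 24.2% of all, 18 higher (10.7%) and 38 lower (13.5%). Fall was shared by both lines in 38 members, where 8.7% of all probesets fell in both, and 17 rose in both against 7.51% of all. Another 5 were called in 1 line and 2 in neither. The median log2 change of the members was -1.62 in LoPro and -1.65 in HiPro, beside 0.08 and -0.01 over all probesets. Since the members were listed for such changes, and the list of shared rises was the less readable, these shares and the excess of falls carry no test.

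Most members were first called at stage 3. At stage 2 the members that differed from stage 1 numbered 3 in LoPro (0.432% of all probesets), 2 higher (0.305%) and 1 lower (0.127%). They numbered 6 in HiPro (1.02% of all probesets), 3 higher (0.56%) and 3 lower (0.456%). At stage 3 the counts were 50 in LoPro (14.8% of all probesets), 15 higher (7.49%) and 35 lower (7.32%). They were 43 in HiPro (13.9% of all probesets), 13 higher (5.96%) and 30 lower (7.92%). In LoPro 3 members were first called at stage 2, 47 at stage 3 and 9 at stage 4, and in HiPro 6, 37 and 14. Stage 3 compared directly with stage 2 gave 35 in LoPro (9.07% of all probesets), 8 higher (4.68%) and 27 lower (4.39%). It gave 25 in HiPro (2.77% of all probesets), 3 higher (1.13%) and 22 lower (1.63%). The HiPro count of 25 was 0 to 16 when any 1 of its arrays or pools was left out, except HiPro stage 3 replicate 3, without which it was 28. The LoPro count of 35 dropped to 19 without replicate 3. The methods' t-test, run on each pair of groups alone, gave 4 members for stage 3 against stage 1 in LoPro (0.605% of all probesets) and 15 in HiPro (2.6%). For stage 3 against stage 2 it gave 0 in LoPro (0.00796%) and 1 in HiPro (0.00265%). Between stages 3 and 4 the counts were 4 in LoPro (0.17% of all probesets), 0 higher (0.0345%) and 4 lower (0.135%). Counts of the same step were 10 in HiPro (0.512% of all probesets), 0 higher (0.0133%) and 10 lower (0.499%).

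**Figure D1:**
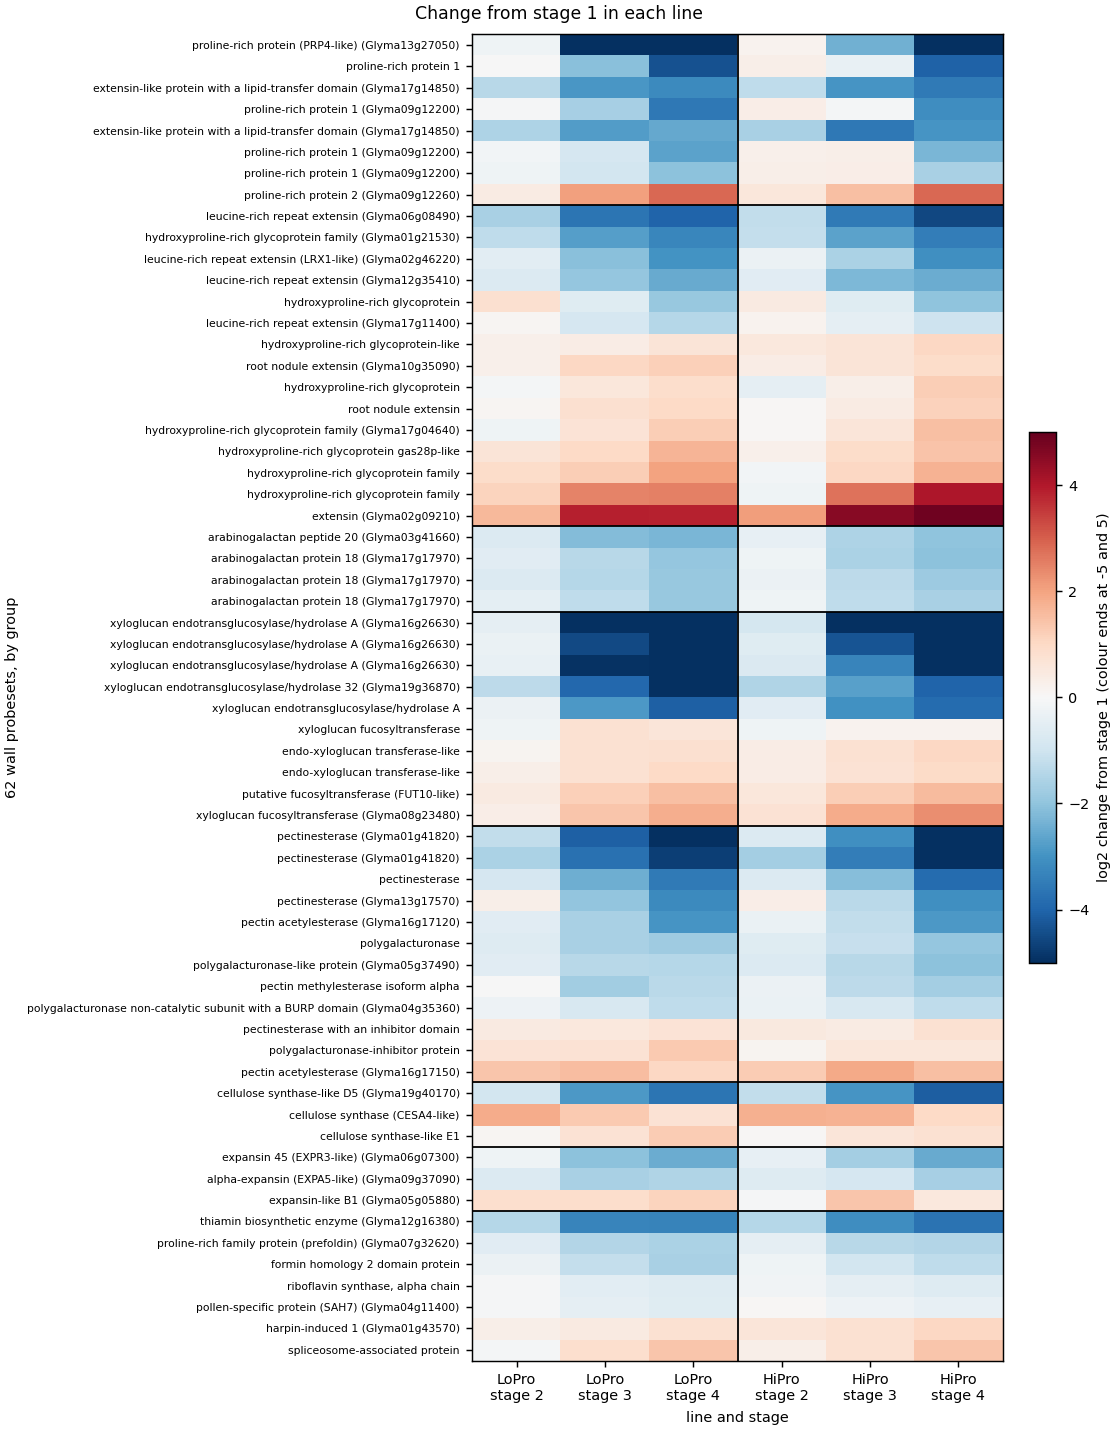
Heat map of the log2 change from stage 1 of the 62 wall probesets, 1 row each, grouped by wall component, with columns for stages 2, 3 and 4 of LoPro and then of HiPro (limma estimates from 3 arrays per group, blue lower and red higher). Columns for stage 2 are pale, those for stages 3 and 4 are mostly blue, and the red rows sit mainly among the extensins and the xyloglucan enzymes.

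Proline-rich proteins included the deepest fall of all members in LoPro. Of 8 probesets, 7 fell in both lines by stage 4 and 1 rose in both. The repetitive proline-rich protein related to PRP4 (gene model Glyma13g27050, symbol LOC100786014) lost nearly all of its signal by stage 4. In LoPro its signals were 13693, 12535 and 10805 at stage 1, 12012, 9403 and 10793 at stage 2, 816, 512 and 64.4 at stage 3 and 33.7, 8.50 and 60.96 at stage 4. In HiPro they were 9153, 9265 and 10868 at stage 1, 10476, 12096 and 10561 at stage 2, 1428, 1206 and 3649.6 at stage 3 and 42.96, 65.5 and 52.01 at stage 4. No change was called at stage 2 in either line, and the stage 3 arrays lay apart from stage 1 in both, yet the lowest HiPro array of stage 3 was above the highest LoPro array. The log2 change to stage 4 was -8.89 ± 0.67 in LoPro (SE, n = 3 arrays a group, adjusted p = 1.99e-08) and -7.53 ± 0.67 in HiPro (adjusted p = 7.69e-08).

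Repetitive proline-rich cell wall protein 1 (PRP1), a structural protein that becomes insoluble in legume walls, was read by 4 probesets, of which 3 map to gene model Glyma09g12200, so they are not independent. One probeset of that model gave 26476, 19820 and 16592 at stage 1, 21347, 21767 and 17266 at stage 2, 13947, 6728 and 3006 at stage 3 and 1515, 1578 and 2176 at stage 4 in LoPro. The same probeset gave 14079, 14025 and 17304 at stage 1, 18745, 20919 and 17367 at stage 2, 13723, 12474 and 16099 at stage 3 and 1364, 1324 and 3041 at stage 4 in HiPro. LoPro had already fallen at stage 3, with its 3 arrays spread widely, while the HiPro arrays of stage 3 still overlapped those of stage 1. At stage 4 the arrays of the 2 lines overlapped, at log2 changes of -3.57 ± 0.37 in LoPro and -3.09 ± 0.37 in HiPro (adjusted p = 5.39e-07 and 2.31e-06).

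The PRP1 probeset tied to no gene model gave 17853, 15205 and 11887 at stage 1, 14376, 17883 and 11698 at stage 2, 8068, 3361 and 1532 at stage 3 and 538, 624 and 1117 at stage 4 in LoPro. Its HiPro signals were 9683, 10129 and 12729 at stage 1, 13206, 15023 and 11942 at stage 2, 7425, 6501 and 12154 at stage 3 and 495, 549 and 1041 at stage 4. The order was the same as for the first PRP1 probeset, and stage 4 lay below every stage 1 array in both lines. Its log2 changes to stage 4 were -4.36 ± 0.41 in LoPro and -4.04 ± 0.41 in HiPro (adjusted p = 2.14e-07 and 4.03e-07). The other 2 PRP1 probesets, both of Glyma09g12200, fell by less, with log2 changes between -2.67 and -1.64. Probesets of this kind can bind related transcripts, so a PRP1 signal may hold more than 1 gene.

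PRP2 went the other way. This relative of PRP1 is close to it by gene model number (Glyma09g12260, symbol PRP2). Its LoPro signals were 1493, 1476 and 509 at stage 1, 1489, 2239 and 809 at stage 2, 3065, 5886 and 4283 at stage 3 and 8333, 8955 and 5963 at stage 4. Its HiPro signals were 708, 994 and 656 at stage 1, 1385, 1463 and 739 at stage 2, 2953, 2806 and 1263 at stage 3 and 6889, 4392 and 5886 at stage 4. Every stage 4 array was above every stage 1 array of its line, and the log2 changes were 2.88 ± 0.42 in LoPro and 2.86 ± 0.42 in HiPro (adjusted p = 2.96e-05 and 2.52e-05). An extensin-like protein with a lipid-transfer domain, described as proline-rich (Glyma17g14850, symbol LOC100499716), read 554, 689 and 1178 at stage 1 and 77.1, 58.7 and 128 at stage 4 in LoPro, and 1069.9, 1062 and 948 at stage 1 and 51.4, 127 and 103 at stage 4 in HiPro. It fell well clear of its stage 1 arrays in each line, by log2 changes of -3.20 ± 0.35 in LoPro and -3.55 ± 0.35 in HiPro (adjusted p = 9.99e-07 and 2.29e-07). A second probeset of that gene had log2 changes of -2.56 and -2.97.

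**Figure D2:**
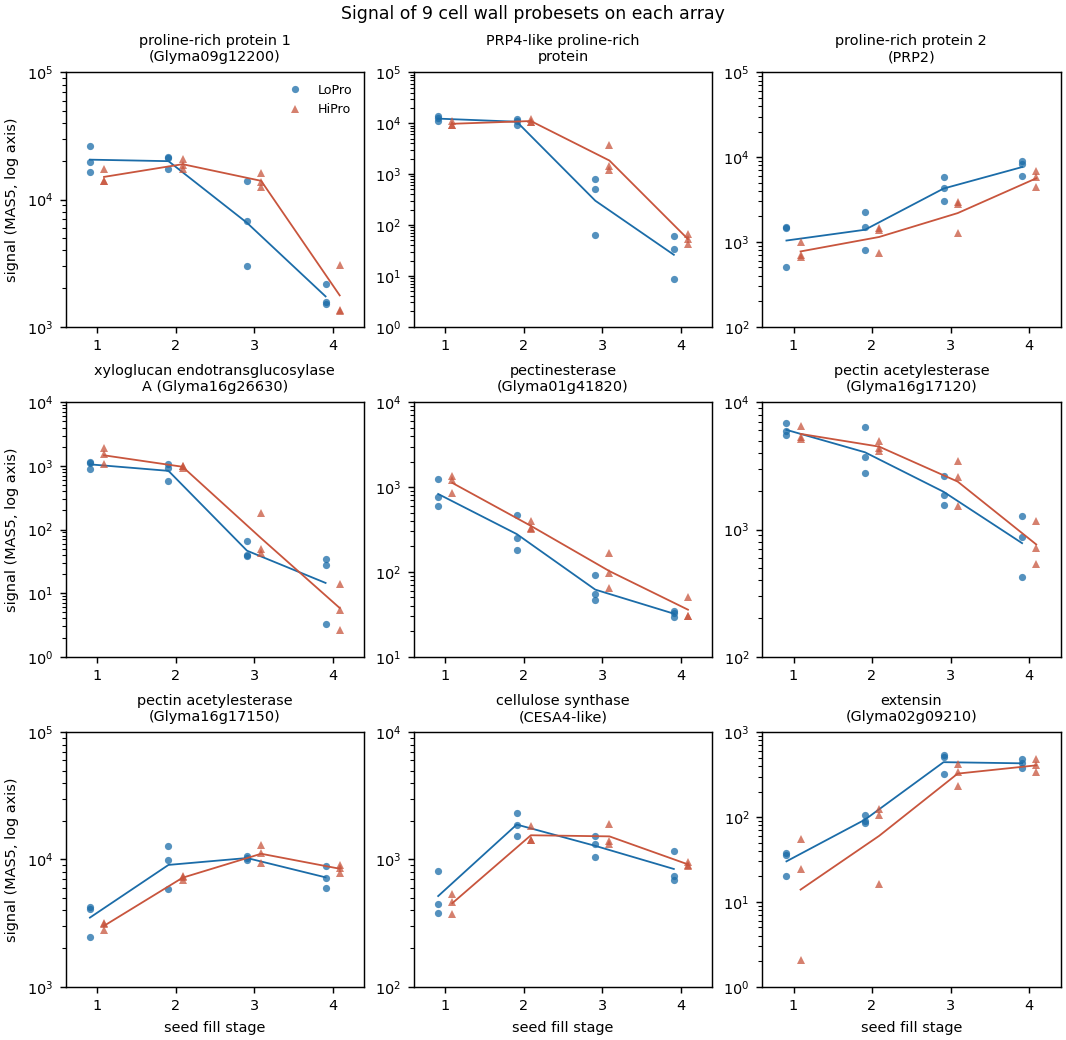
Signal of 9 wall probesets at the 4 stages, on a log axis, with each array as a point and each line's geometric mean joined across stages (3 arrays per stage and line). PRP4-like and PRP1 stay high to stage 2 and then drop, PRP2 climbs, and the pectin acetylesterase Glyma16g17150 and CESA4-like probesets rise by stage 2.

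Extensins and other hydroxyproline-rich proteins moved in both directions: 7 of 15 rose in both lines, 6 fell in both, 1 was called in 1 line and 1 in neither. An extensin, a rod-like glycoprotein cross-linked into walls (Glyma02g09210), showed the largest rise. Its LoPro signals were 35.8, 37.6 and 20.2 at stage 1, 106, 85.6 and 89.9 at stage 2, 318, 513 and 536 at stage 3 and 383, 429.9 and 483 at stage 4. Its HiPro signals were 2.06, 54.4 and 24.2 at stage 1, 125, 105 and 16.5 at stage 2, 343, 235 and 427 at stage 3 and 411, 486 and 338 at stage 4. Stage 1 signals were low and stages 3 and 4 lay above every earlier array in both lines. The log2 changes to stage 4 were 3.84 ± 0.79 in LoPro and 4.87 ± 0.79 in HiPro (adjusted p = 0.000989 and 8.03e-05), or 3.84 and 3.93 with signals under 14.5 raised to that value, the level under which 10% of all signals lay. Without HiPro stage 1 replicate 1 the HiPro change of this extensin was 3.49, and without replicate 2 of that stage 5.85.

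The 4 leucine-rich repeat extensins, wall proteins that pair an extensin tail with a repeat domain, all fell in both lines. The largest fall was in Glyma06g08490, which read 1767, 1545 and 3325 at stage 1 and 129, 139.8 and 121 at stage 4 in LoPro, and 2347, 2403 and 2549 at stage 1 and 103, 97.2 and 114 at stage 4 in HiPro. Its changes were -4.01 ± 0.48 in LoPro and -4.54 ± 0.48 in HiPro (adjusted p = 2.85e-06 and 5e-07) on the log2 scale. An LRX1-like probeset (Glyma02g46220; LRX1 acts in root hair walls of Arabidopsis) read 2490.2, 2438 and 3021 at stage 1 and 198, 357 and 499.8 at stage 4 in LoPro, and 3174, 3077 and 2902 at stage 1 and 324, 313 and 470.3 at stage 4 in HiPro. No stage 4 array of either gene reached its line's stage 1 range, and the LRX1-like changes were -3.01 ± 0.29 in LoPro and -3.07 ± 0.29 in HiPro (adjusted p = 2.25e-07 and 1.38e-07). Glyma17g11400, which carries a symbol that RefSeq places on chromosome 1 and not 17, fell least, with log2 changes of -1.41 and -1.05.

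The symbol LOC100305464 of a hydroxyproline-rich glycoprotein family member (Glyma01g21530) lies on chromosome 13 in RefSeq and its gene model on chromosome 1, so the gene read is uncertain. Its probeset read 678, 542 and 883 at stage 1 and 68.2, 69.4 and 77.4 at stage 4 in LoPro, and 747, 1050.1 and 968 at stage 1 and 99.04, 78.1 and 74.02 at stage 4 in HiPro. No stage 4 array reached the stage 1 range of its line, with log2 changes of -3.26 ± 0.30 in LoPro and -3.46 ± 0.30 in HiPro (adjusted p = 1.67e-07 and 6.48e-08). Another probeset of that family name, tied to no gene model, rose from very low signals, which read 4.88, 2.25 and 3.36 at stage 1 and 33.3, 6.06 and 35.9 at stage 4 in LoPro, and 2.22, 5.85 and 4.20 at stage 1 and 52.9, 50.7 and 94.6 at stage 4 in HiPro. One LoPro stage 4 array stayed close to the stage 1 values and the other 2 were clear of them. Its log2 changes were 2.54 ± 0.79 in LoPro and 4.06 ± 0.79 in HiPro (adjusted p = 0.0191 and 0.000465), but with signals raised to at least 14.5 the LoPro change was 0.83 and was no longer called. That call was also lost without LoPro stage 1 replicate 2 or stage 4 replicate 1 or 3, or without LoPro pool 1 or 3. The remaining risers in this group, among them 2 probesets of root nodule extensin, changed by 0.92 to 2.01 on the log2 scale where called.

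All 4 arabinogalactan protein probesets fell in both lines, first called at stage 3. Arabinogalactan proteins are heavily glycosylated proteoglycans of the cell surface. Of the 4, 3 probesets read the same gene, a relative of the lysine-rich AGP18 of Arabidopsis (Glyma17g17970, symbol LOC100778240). The first of these read 3793, 3655 and 5535 at stage 1 and 1183, 966 and 1278 at stage 4 in LoPro, and 4565, 4103 and 4906 at stage 1 and 1822, 1281 and 1307 at stage 4 in HiPro. The second read 1534, 1626 and 2019 at stage 1 and 446, 407 and 494 at stage 4 in LoPro, and 2282, 1826 and 2053 at stage 1 and 374, 527 and 629.8 at stage 4 in HiPro. The third read 2147, 2304 and 3185 at stage 1 and 649, 676 and 701 at stage 4 in LoPro, and 2842, 2148 and 3052 at stage 1 and 765, 773 and 750.3 at stage 4 in HiPro. All 3 probesets fell and no stage 4 array reached the stage 1 range of its line, with log2 changes from -1.64 to -2.04 across probesets and lines.

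The arabinogalactan peptide 20 probeset (Glyma03g41660), for a short protein of this class, read 289, 224 and 368 at stage 1 and 66.1, 75.1 and 41.9 at stage 4 in LoPro, and 251, 246 and 349 at stage 1 and 92.4, 68.6 and 49.99 at stage 4 in HiPro. Its signal also separated by stage, with log2 changes of -2.28 ± 0.28 in LoPro and -2.03 ± 0.28 in HiPro (adjusted p = 3.99e-06 and 1.2e-05). The AGP18 changes were -1.90 ± 0.29 in LoPro and -1.64 ± 0.29 in HiPro (adjusted p = 5.2e-05 and 0.00021) for the first probeset, -1.94 ± 0.29 in LoPro and -2.04 ± 0.29 in HiPro (adjusted p = 3.51e-05 and 1.63e-05) for the second and -1.89 ± 0.27 in LoPro and -1.80 ± 0.27 in HiPro (adjusted p = 2.52e-05 and 3.66e-05) for the third.

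Xyloglucan enzymes moved in both directions. Probesets described as xyloglucan endotransglucosylase/hydrolases (XTHs), which cut xyloglucan and rejoin its ends, fell in all 5 cases. Those described as endo-xyloglucan transferase-like proteins or fucosyltransferases rose in 4 probesets in both lines and in a further one in LoPro only. The split follows the names in the descriptions, which need not stand for different enzyme families. XTH A was read by 4 probesets, 3 of them placed on Glyma16g26630 and 3 carrying the symbol LOC100793686, so they count as 1 gene or a close pair. RefSeq places LOC100793686 on chromosome 2, while the gene model is on chromosome 16, so the gene read is uncertain. One XTH A probeset on Glyma16g26630 gave 1169.7, 1111 and 908 at stage 1, 930.0, 585 and 1072 at stage 2, 65.5, 39.3 and 38.8 at stage 3 and 34.2, 3.21 and 27.5 at stage 4 in LoPro. The HiPro signals of that probeset were 1915, 1539 and 1069 at stage 1, 979.9, 932 and 995 at stage 2, 42.1, 49.96 and 184 at stage 3 and 5.46, 2.61 and 13.9 at stage 4. No change was called at stage 2, and from stage 3 on every array lay far below the stage 1 range of its line.

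The log2 changes of that XTH A probeset to stage 4 were -6.19 ± 0.68 in LoPro and -7.97 ± 0.68 in HiPro (adjusted p = 1.23e-06 and 5.18e-08). Its HiPro signals at stage 4 and the lowest LoPro one lay under 14.5, and signals that low have no order. With signals raised to at least 14.5 the changes were -5.47 and -6.66. Another XTH A probeset of the same model read 153, 114 and 98.5 at stage 1 and 0.562, 0.465 and 0.464 at stage 4 in LoPro, and 239.9, 176 and 121 at stage 1 and 0.386, 3.26 and 0.409 at stage 4 in HiPro. A further one read 467, 411 and 427 at stage 1 and 3.00, 8.05 and 11.7 at stage 4 in LoPro, and 780.5, 539 and 416 at stage 1 and 7.35, 6.86 and 5.31 at stage 4 in HiPro. All stage 4 arrays of both probesets were under 14.5, and with that minimum their changes were -3.04 and -3.57 for the first and -4.90 and -5.27 for the second, against -7.92 and -7.75, and -6.05 and -6.44, without it.

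XTH32 (Glyma19g36870) read 97.9, 66.9 and 80.4 at stage 1 and 0.681, 10.01 and 0.827 at stage 4 in LoPro, and 132, 85.1 and 92.2 at stage 1 and 1.27, 20.8 and 9.42 at stage 4 in HiPro. It lay below its stage 1 range on every stage 4 array, though 1 array of HiPro stayed above 14.5, with changes of -5.50 ± 0.99 in LoPro and -4.01 ± 0.99 in HiPro (adjusted p = 0.000267 and 0.0037). With the minimum of 14.5 these were -2.47 and -2.63, and without HiPro replicate 1 the HiPro change was -2.66 and not called.

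The risers among the xyloglucan enzymes rose by less than the probesets described as XTHs fell. An endo-xyloglucan transferase-like probeset with no gene model read 768, 812 and 915 at stage 1 and 1515, 1634 and 1773 at stage 4 in LoPro, and 869, 899 and 899 at stage 1 and 1635, 1855 and 1659 at stage 4 in HiPro. A xyloglucan fucosyltransferase (Glyma08g23480), which adds the fucose that caps xyloglucan side chains, read 90.2, 127 and 122 at stage 1 and 406, 411 and 367 at stage 4 in LoPro, and 56.1, 72.4 and 88.4 at stage 1 and 485, 365 and 265 at stage 4 in HiPro. A putative fucosyltransferase related to FUT10 read 636, 732 and 601 at stage 1 and 2017, 1989.9 and 1531 at stage 4 in LoPro, and 523, 679 and 587 at stage 1 and 1878, 1851 and 1602 at stage 4 in HiPro. The stage 4 arrays of all 3 lay above every stage 1 array of their line. Their log2 changes were 0.98 ± 0.11 in LoPro and 0.95 ± 0.11 in HiPro (adjusted p = 1.71e-06 and 2e-06) for the transferase-like probeset, 1.82 ± 0.23 in LoPro and 2.34 ± 0.23 in HiPro (adjusted p = 5.19e-06 and 2.12e-07) for the xyloglucan fucosyltransferase and 1.49 ± 0.15 in LoPro and 1.58 ± 0.15 in HiPro (adjusted p = 4.95e-07 and 1.98e-07) for the FUT10-like one.

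Pectin enzymes mostly fell: 9 of 12 fell in both lines, 2 rose in both and 1, a polygalacturonase-inhibitor protein, rose in LoPro by 1.32 ± 0.24 with a HiPro value of 0.57 ± 0.24 that was not called (limma adjusted p = 0.0816), both on the log2 scale. The largest falls were in pectinesterases, which strip methyl esters from pectin. Glyma01g41820 was read by 2 probesets, which are not independent. The first gave 761, 598 and 1255 at stage 1, 254, 183 and 468 at stage 2, 92.3, 54.7 and 46.8 at stage 3 and 33.1, 29.2 and 34.5 at stage 4 in LoPro. The HiPro signals were 841, 1222 and 1368 at stage 1, 323, 333 and 396 at stage 2, 65.4, 97.4 and 167 at stage 3 and 30.3, 50.4 and 30.2 at stage 4. At stage 2 all 3 arrays of each line lay below their stage 1 arrays, and each later stage lay below the one before without overlap. The log2 changes to stage 4 were -4.69 ± 0.36 in LoPro and -4.97 ± 0.36 in HiPro (adjusted p = 2.45e-08 and 1.3e-08).

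The second probeset of that gene read 403, 649 and 836 at stage 1 and 15.8, 6.87 and 8.93 at stage 4 in LoPro, and 569.9, 515 and 996 at stage 1 and 32.5, 4.88 and 23.6 at stage 4 in HiPro. Pectinesterase Glyma13g17570 read 634, 519 and 469 at stage 1 and 62.3, 55.4 and 60.02 at stage 4 in LoPro, and 457, 385 and 554 at stage 1 and 45.3, 73.1 and 50.4 at stage 4 in HiPro. Another pectinesterase (symbol LOC100816503) read 1520.4, 1565 and 1926 at stage 1 and 102, 117 and 242 at stage 4 in LoPro, and 1721, 2238 and 1704 at stage 1 and 79.02, 166 and 172 at stage 4 in HiPro. Stage 4 lay below stage 1 without overlap for each of them, at log2 changes of -5.93 ± 0.65 in LoPro and -5.42 ± 0.65 in HiPro (adjusted p = 1.03e-06 and 2.29e-06), -3.18 ± 0.36 in LoPro and -3.06 ± 0.36 in HiPro (adjusted p = 1.81e-06 and 2.18e-06) and -3.54 ± 0.35 in LoPro and -3.83 ± 0.35 in HiPro (adjusted p = 3.06e-07 and 9.65e-08) in that order. With signals raised to at least 14.5 the first of these 3 pairs was -5.33 and -4.89. A pectinesterase that also carries an inhibitor domain rose slightly. Its signals were 314, 301 and 274 at stage 1 and 448, 461 and 519 at stage 4 in LoPro, and 274, 336 and 332 at stage 1 and 675, 394 and 539 at stage 4 in HiPro, with log2 changes of 0.68 ± 0.15 in LoPro and 0.74 ± 0.15 in HiPro (adjusted p = 0.00187 and 0.000749). Its call was lost without LoPro replicate 3 (0.56) in LoPro and without HiPro replicate 1 (0.47) or its stage 4 array alone (0.56) in HiPro.

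Both probesets for pectin acetylesterase, which removes acetyl groups from pectin, are tied to gene models close in number and moved apart. Glyma16g17150 was among the few members to rise early. In LoPro its signals were 4059.8, 4259.8 and 2463 at stage 1, 9906, 12760 and 5891 at stage 2, 10631, 9937 and 10245 at stage 3 and 7174, 5985 and 8826 at stage 4. Its signals in HiPro were 3167, 2789 and 3092 at stage 1, 6899, 7284 and 7400.4 at stage 2, 12990, 11240 and 9348 at stage 3 and 8969.5, 7800.1 and 8649 at stage 4. In both lines every array from stage 2 on lay above every stage 1 array, and the highest mean was at stage 3. Its changes to stage 4 were 1.05 ± 0.22 in LoPro and 1.49 ± 0.22 in HiPro (adjusted p = 0.00119 and 3e-05) on the log2 scale. The probeset of the other model, Glyma16g17120, added here after its values were seen, read 6842, 5537 and 5906 at stage 1 and 424, 879 and 1278 at stage 4 in LoPro, and 6542, 5123 and 5358 at stage 1 and 534, 711 and 1172 at stage 4 in HiPro, with log2 changes of -2.96 and -2.89. The 3 polygalacturonase descriptions, for enzymes that cleave the pectin backbone or their partner subunit, all fell, by log2 changes between -2.05 and -1.26.

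Among cellulose synthases the members differed in direction. Cellulose synthase-like D5 (CSLD5, Glyma19g40170), which in Arabidopsis acts in cell plate formation, had a lower signal at each stage. Its signals in LoPro were 1419.9, 1605 and 2608 at stage 1, 803, 752 and 1417 at stage 2, 389, 218 and 177 at stage 3 and 132, 147 and 156 at stage 4. The same probeset in HiPro gave 2081, 3185 and 3110.2 at stage 1, 1044, 1003 and 1487 at stage 2, 395, 259.6 and 421 at stage 3 and 163, 149 and 158 at stage 4. Each stage lay below the one before without overlap from stage 2 on, and its changes to stage 4 were -3.65 ± 0.29 in LoPro and -4.13 ± 0.29 in HiPro (adjusted p = 3.02e-08 and 7.88e-09).

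A cellulose synthase related to CESA4, which in Arabidopsis makes the cellulose of secondary walls, rose early and had a lower mean at stage 4 than at stages 2 and 3. Signals in LoPro were 445, 814 and 379 at stage 1, 2336, 1876 and 1521 at stage 2, 1521, 1049 and 1314 at stage 3 and 742, 686 and 1173 at stage 4. Signals in HiPro were 376, 467 and 532 at stage 1, 1432, 1412 and 1842 at stage 2, 1395, 1318 and 1909 at stage 3 and 954, 898 and 895 at stage 4. Stages 2 and 3 were above stage 1 on every array, whereas at stage 4 the LoPro arrays overlapped those of stage 1. The stage 4 changes were 0.71 ± 0.25 in LoPro and 1.01 ± 0.25 in HiPro (adjusted p = 0.0362 and 0.00335), and the LoPro call was lost, with changes down to 0.25, on leaving out replicate 1 or 3 of stage 1, replicate 3 of stage 4, or either whole pool. The HiPro call was lost without replicate 1, at 0.85. A cellulose synthase-like E1 probeset was called only in LoPro, at 1.29 ± 0.31, beside 0.78 ± 0.31 in HiPro.

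Expansins, which loosen walls during growth, fell in 2 of 3 probesets in both lines. An alpha-expansin related to EXPA5 is placed on Glyma09g37090 in the study's lists, but the platform annotation ties the probeset to several genes. It gave 570.0, 369 and 570.5 at stage 1, 319.9, 272 and 341 at stage 2, 154, 131 and 198 at stage 3 and 161, 154 and 221 at stage 4 in LoPro. Its HiPro signals were 551, 520.3 and 603 at stage 1, 418, 281 and 401 at stage 2, 381, 307 and 265 at stage 3 and 174, 162 and 193 at stage 4. In LoPro the arrays of stages 3 and 4 overlapped, whereas the HiPro arrays of stage 3 lay between those of stages 1 and 4 and overlapped those of stage 2 only. Changes to stage 4 were -1.49 ± 0.20 in LoPro and -1.66 ± 0.20 in HiPro (adjusted p = 1.47e-05 and 3.2e-06). Expansin 45, described as related to EXPR3 (Glyma06g07300), read 140.2, 128 and 137 at stage 1 and 14.98, 23.1 and 39.5 at stage 4 in LoPro, and 162, 157 and 236 at stage 1 and 21.04, 55.3 and 26.5 at stage 4 in HiPro, and its changes were -2.50 ± 0.37 in LoPro and -2.53 ± 0.37 in HiPro (adjusted p = 3.63e-05 and 2.47e-05) without overlap. Expansin-like B1 passed in neither line at stage 4, at 1.10 ± 0.44 in LoPro and 0.55 ± 0.44 in HiPro (adjusted p = 0.0663 and 0.381), and was called in HiPro at stage 3, at 1.38 ± 0.44 (adjusted p = 0.0325).

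The 7 probesets with a rule word only in a secondary description are not wall proteins by their main name. In this set 2 rose in both lines, 4 fell in both and 1 was called in LoPro only. The largest fall was a thiamin biosynthetic enzyme (Glyma12g16380), which read 1537, 1225 and 1442 at stage 1, 606, 431 and 541 at stage 2, 166, 179 and 95.1 at stage 3 and 132, 139.5 and 138 at stage 4 in LoPro. HiPro values were 1819, 774 and 1599 at stage 1, 478, 527 and 479 at stage 2, 138, 133 and 198 at stage 3 and 102, 107 and 98.8 at stage 4. It was lower at stage 2 than at stage 1 on every array and changed by -3.35 ± 0.25 in LoPro and -3.67 ± 0.25 in HiPro (adjusted p = 1.99e-08 and 7.88e-09) to stage 4. A formin homology 2 protein, of a family that nucleates actin filaments, read 676, 792 and 625 at stage 1 and 219, 220.2 and 231 at stage 4 in LoPro, and 617, 519.6 and 813 at stage 1 and 303, 322 and 198 at stage 4 in HiPro. A proline-rich prefoldin-like protein (Glyma07g32620) read 454, 339.6 and 473 at stage 1 and 115, 151 and 151 at stage 4 in LoPro, and 413, 551 and 471 at stage 1 and 204, 161 and 151 at stage 4 in HiPro. Both fell without overlap, by -1.64 ± 0.25 in LoPro and -1.25 ± 0.25 in HiPro (adjusted p = 4.42e-05 and 0.00056) for the formin and -1.60 ± 0.21 in LoPro and -1.48 ± 0.21 in HiPro (adjusted p = 7.65e-06 and 1.52e-05) for the prefoldin-like protein.

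Of the 2 risers in that set, a harpin-induced 1 protein (Glyma01g43570) read 498, 528 and 525 at stage 1 and 997, 932 and 734 at stage 4 in LoPro, and 479, 504 and 408 at stage 1 and 916, 937 and 1014 at stage 4 in HiPro. A spliceosome-associated protein read 159.8, 152 and 133 at stage 1 and 454, 425 and 296 at stage 4 in LoPro, and 144, 128 and 116 at stage 1 and 386, 286 and 361 at stage 4 in HiPro. The arrays of stage 4 were above those of stage 1 for both. The changes were 0.77 ± 0.12 in LoPro and 1.05 ± 0.12 in HiPro (adjusted p = 7.03e-05 and 1.69e-06) for the first and 1.38 ± 0.22 in LoPro and 1.40 ± 0.22 in HiPro (adjusted p = 7.53e-05 and 5.39e-05) for the second.

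The earliest changes were few. In LoPro at stage 2 pectin acetylesterase Glyma16g17150 had risen by 1.38 ± 0.22 on the log2 scale (adjusted p = 0.00722), the CESA4-like probeset by 1.87 ± 0.25 (adjusted p = 0.00182), and the thiamin enzyme had changed by -1.42 ± 0.25 (adjusted p = 0.0135). In HiPro the same 3 were called, at 1.26 ± 0.22 (adjusted p = 0.00744), 1.77 ± 0.25 (adjusted p = 0.00118) and -1.41 ± 0.25 (adjusted p = 0.00804). Pectinesterase Glyma01g41820 (-1.68 ± 0.36, adjusted p = 0.0243), CSLD5 (-1.24 ± 0.29, adjusted p = 0.0363) and the harpin-induced protein (0.59 ± 0.12, adjusted p = 0.0171) were called in HiPro besides. With the plant pool as a block the counts were 7 in LoPro (1.19% of all probesets) and 11 in HiPro (2.51%). The members added by the block in LoPro were the extensin-like protein Glyma17g14850, the hydroxyproline-rich protein Glyma01g21530, pectinesterase Glyma01g41820 and the alpha-expansin. The LoPro count ran from 0 to 9 as single arrays or pools were left out, and was 9 without LoPro stage 2 replicate 3, the array with the low reserve sum. In HiPro it ran from 0 to 6.

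The latest changes, from stage 3 to stage 4, were led by the proline-rich proteins. In LoPro all 4 called members belonged to them: PRP4-like changed by -3.53 ± 0.67 on the log2 scale (adjusted p = 0.0362), and 3 PRP1 probesets by -1.92 ± 0.37 (adjusted p = 0.0365), -1.85 ± 0.33 (adjusted p = 0.0334) and -2.26 ± 0.41 (adjusted p = 0.0336). In HiPro PRP4-like changed by -5.13 ± 0.67 (adjusted p = 0.00107) and the 4 PRP1 probesets by -3.67 to -1.97. The other 5 HiPro calls were the LRX1-like extensin (-1.50 ± 0.29), XTH A (-3.64 ± 0.68, or -2.32 with signals raised to at least 14.5), pectinesterase Glyma13g17570 (-1.72 ± 0.36), the pectinesterase with symbol LOC100816503 (-1.72 ± 0.35) and pectin acetylesterase Glyma16g17120 (-1.64 ± 0.36), with adjusted p from 0.0147 to 0.041. With the minimum of 14.5 on all signals the calls of PRP4-like and of the first PRP1 probeset in LoPro, and of both pectinesterases and the pectin acetylesterase in HiPro, were lost (adjusted p from 0.0514 to 0.0715). Leaving out single arrays or pools gave 0 to 6 calls in LoPro and 1 to 11 in HiPro.

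Whether the 2 lines differ in wall transcripts at the same stage was asked next. No member was called between HiPro and LoPro at any stage, where 0.0159%, 0.0133%, 0.0345% and 0.061% of all probesets were called at stages 1 to 4. At an unadjusted limma p under 0.05, 2 members passed at stage 1, 2 at stage 2, 13 at stage 3 and 1 at stage 4, beside 4.32%, 4.98%, 7.09% and 4.48% of all probesets. The change from stage 1 to stage 4 was called different between the lines for no member and for 0% of all probesets, with 1 member passing unadjusted (4.94% of all). By the methods' t-test, too, no member was called between the lines at any stage. At an unadjusted p under 0.05 that test passed 0, 1, 5 and 3 members at stages 1 to 4.

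At stage 3 the difference ran mostly one way among the members that fell with age. Lists of LoPro changes were the more readable, so the choice of members may favour stage 3 falls that were deeper in LoPro. The part of that choice was not tested. Several of the 38 probesets that fell in both lines read the same gene, so they are not independent. Some have the rule word only in a secondary description. Of the 38, 35 had a higher mean in HiPro, with a median log2 difference of 0.44, HiPro minus LoPro. No such count was made over all probesets. Without HiPro stage 3 replicate 3 the figures were 26 of 38 and 0.17, and the number of members at an unadjusted p under 0.05 went from 13 to 6. Without LoPro stage 3 replicate 3 they were 31 of 38, and 5 members passed unadjusted. HiPro stage 3 replicate 3 had the highest signal of its group in 33 of the 38 and the low reserve and high dividing-cell sums given above. Median HiPro minus LoPro differences of the marker lists at stage 3 were 0.35 for dividing cells, 0.46 for the seed coat and -0.20 for cotyledon reserves. At stage 1 they were 0.31, -0.15 and -0.72, at stage 2 0.22, 0.02 and -0.15 and at stage 4 0.07, -0.02 and 0.12. The part of these markers in the wall difference was not tested. At stages 1, 2 and 4, 27, 26 and 25 of the 38 were higher in HiPro, with medians of 0.17, 0.19 and 0.11. These moved with single arrays. Without LoPro replicate 2 of the stage they were 24, 20 and 20 of 38, with medians of 0.08, 0.03 and 0.03, and without LoPro replicate 3 of the stage 28, 30 and 30, with medians of 0.28, 0.39 and 0.24. Without HiPro stage 4 replicate 3 the stage 4 figures were 20 and 0.04. As single arrays were left out, the members passing unadjusted ran from 1 to 6 at stage 1, 1 to 10 at stage 2 and 1 to 4 at stage 4, and were most without LoPro replicate 3 at stages 1 and 2 and without LoPro replicate 2 at stage 4.

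**Figure D3:**
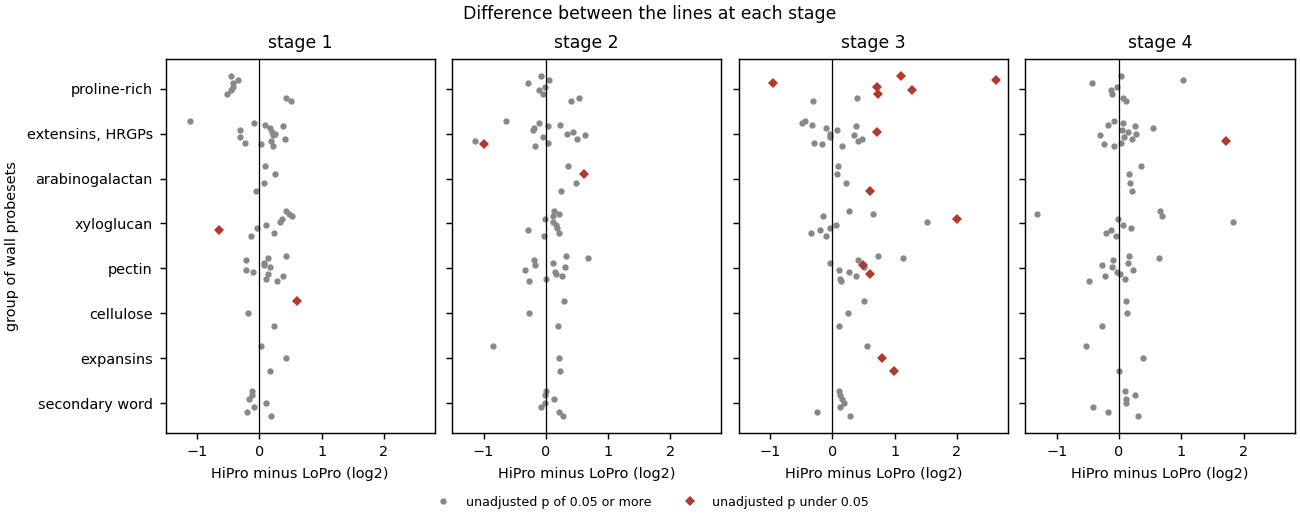
HiPro minus LoPro log2 difference of the 62 wall probesets at each of the 4 stages, by wall component (limma estimates from 3 arrays per group). Points scatter about 0 at stages 1, 2 and 4 and lie mostly above 0 at stage 3, and none is past the adjusted threshold. Diamonds mark an unadjusted p under 0.05.

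The largest line difference at stage 3 was in PRP4-like. At an unadjusted limma p under 0.05, 6 of the 8 proline-rich probesets passed, among them the PRP1 probesets, which are not independent. Only 1 passed by the methods' t-test, and 1 without LoPro stage 3 replicate 3. The share of all probesets that passed at stage 3 is given above. PRP4-like was higher in HiPro by 2.62 ± 0.67 on the log2 scale (limma adjusted p = 0.39), and its 3 HiPro arrays all lay above the 3 LoPro arrays listed above. The difference was 1.51 without LoPro stage 3 replicate 3 and 3.34 without replicate 1. The PRP1 probesets were higher by 1.10 ± 0.37, 1.27 ± 0.41, 0.71 ± 0.33 and 0.73 ± 0.27 (adjusted p = 0.552, 0.54, 0.698 and 0.573), with the first LoPro array inside or above the HiPro range. Without LoPro stage 3 replicate 3 they were 0.53, 0.68, 0.21 and 0.35, in that order (adjusted p from 0.831 to 0.915). Without LoPro stage 3 replicate 1 they were 1.64, 1.88, 1.12 and 1.10, and the second, with no gene model, reached the threshold (adjusted p = 0.0406). PRP2 was lower in HiPro, at -0.96 ± 0.42 (adjusted p = 0.679), again without overlap.

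The alpha-expansin had the smallest p of all members, at 0.99 ± 0.20 (adjusted p = 0.171), and its stage 3 arrays of 381, 307 and 265 in HiPro lay above the 154, 131 and 198 of LoPro. With the replicate number as a block its adjusted p was 0.0121 and it was the 1 member called between the lines (0.061% of all probesets). At stage 3, 6 members had all HiPro arrays above all LoPro arrays (5.43% of all probesets) and 4 the reverse (6.93%), beside 52 that overlapped. Those above, named after their values were seen, were PRP4-like, the extensin-like protein LOC100499716, pectin methylesterase isoform alpha, a polygalacturonase, expansin 45 and the alpha-expansin. Those below were PRP2, both root nodule extensins and the xyloglucan fucosyltransferase Glyma08g23480. At stage 1 the counts were 2 above (6.28% of all probesets) and 3 below (3.28%). At stage 2 they were 2 (3.89%) and 1 (5.99%), and at stage 4 they were 4 (3.06%) and 3 (5.13%).

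**Figure D4:**
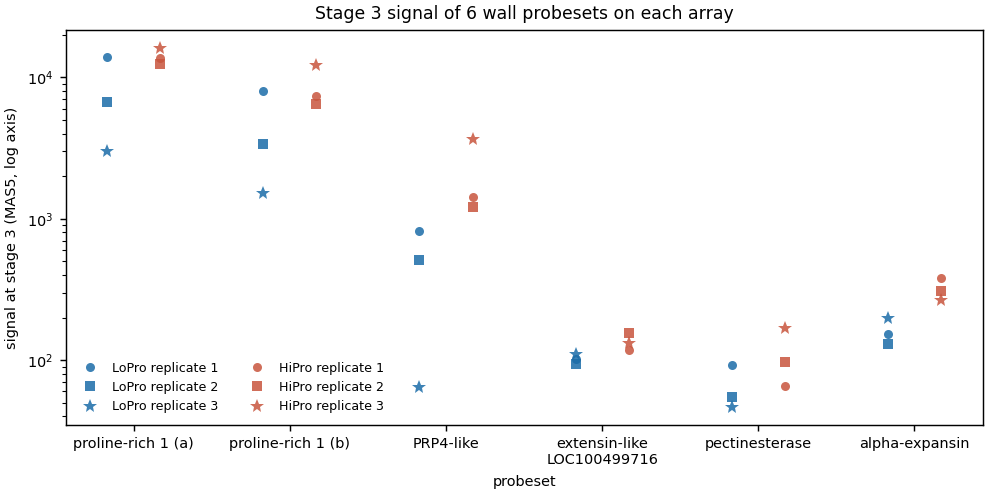
Signal at stage 3 on a log axis for 6 wall probesets that fall with age, with 3 LoPro and 3 HiPro arrays as separate points marked by replicate. The HiPro points of PRP4-like, the extensin-like protein and the alpha-expansin lie above all LoPro points, whereas the 2 PRP1 probesets and the pectinesterase overlap between lines.

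Both lines were also compared for the change from stage 1 to stages 2 and 3, a comparison chosen after seeing the data. No member and 0% of all probesets were called for either stage. At an unadjusted p under 0.05, 0 members passed for stage 2 and 7 for stage 3, beside 4.13% and 3.63% of all probesets. The 7 were 5 proline-rich probesets, the xyloglucan fucosyltransferase without a gene model and the alpha-expansin, all at an adjusted p of 0.999858.

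The array holds 5 further probesets with a wall symbol that the rule did not take in. The readable lists held 3 of them, the second PRP2 and both PRP3 probesets, with no rule word in the description columns used, and the lists describe the PRP3 probesets as a lipase, so their name is uncertain. Between stage 1 and stage 4, 1 rose (11.3% of all probesets) and 4 fell (10.4%) in LoPro, and 1 rose (10.7%) and 3 fell (13.5%) in HiPro. A second PRP2 probeset read 945, 821 and 339 at stage 1 and 9098, 9388 and 5293 at stage 4 in LoPro, a change of 3.58 ± 0.40, and in HiPro its change was 3.22 ± 0.40. XTH1 changed by -2.08 ± 0.77 in LoPro (limma adjusted p = 0.0475) and -1.74 ± 0.77 in HiPro, where it was not called (adjusted p = 0.0914), and a further PRP1 probeset by -1.74 ± 0.32 and -2.32 ± 0.32. The log2 changes of one PRP3 probeset were -1.28 ± 0.16 and -1.27 ± 0.16, LoPro first, and those of the other -0.67 ± 0.16 and -0.66 ± 0.16. A search of every annotation column of the lists, added after seeing the data, gave 16 probesets beyond the members, 3 of them among the 5 above. The other 13 comprised 1 that rose and 12 that fell in each line, beside the same shares of all probesets. They too stood in the lists of changed probesets, so these counts are a description.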

How the data were processed

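Total RNA from 24 samples of whole soybean seed was read on Affymetrix Soybean GeneChips, with 3 arrays for each of 2 lines at 4 stages. Each line had 3 plant pools, each sampled at the 4 stages. The deposited values are signal intensities on a linear scale, 1 per probeset, for which the submitters' processing notes name MAS5 with no version. MAS5 sets perfect-match against mismatch probes and scales each array by 1 factor, so low signals are noisy and large falls to low signal are uncertain in size. The study made its lists from RMA values, which are not used here. The table held 37763 rows, of which 69 control rows were left out. Log2 signals correlated at r = 0.941 to 0.966 between replicates of a group, and with 3 arrays a group their number limits the precision.

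All 8 group means were fitted together with limma 3.58.1 in R 4.3.3 (eBayes with trend, 16 residual degrees of freedom) on log2 signal, with no floor and no filter. A call needed a Benjamini-Hochberg adjusted p under 0.05 over all probesets and a 1.5-fold change. P-values measure the spread between the arrays of a group, taken over all groups. The main fit treats all arrays as independent, although each plant pool gave an array at every stage. The fit was tried on simulated data with independent noise on every array and known changes set in brighter probesets only. That trial says nothing on p-values for arrays that share plants, or on low signals. By the study's methods a replicate's 4 stages were seed of the same 3 plants, so the pool was tried as a block for stages, and the replicate number for lines. Residuals of arrays of the same pool correlated at 0.096, those sharing only a number across lines at 0.080, and others at -0.043. By pool the values were 0.155, 0.055 and 0.128 in LoPro and 0.125, 0.033 and 0.081 in HiPro.

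The members, groups and marker lists were chosen with earlier results of these data known. The study's lists could be read only in part, and those of HiPro least. Descriptions were taken from the UniProt, Arabidopsis and Medicago truncatula columns. Members named with values were, in each group, up to 4 called at stage 4 in both lines with the largest mean change, up to 3 called against the majority of their group, and up to 4 called at stage 2. Members called between lines would have been added, and there were 0. Gene models are those of the study's lists and symbols those of the platform annotation and RefSeq. Probesets ending in _s_at or _x_at can bind related transcripts. Alternatives were quantile normalization, median centring, a floor at the 10th percentile of signal, leaving out the lowest 30% of mean signal, the block, the methods' t-test, members by the UniProt description alone, and leaving out each pool or array.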

Additional observations from a re-analysis of the deposited data

Results flagged for a closer look

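Of the PRP1 probesets on Glyma09g12200, 2 moved in opposite directions in the 2 lines between stage 1 and stage 3. In the first the signal fell in all 3 LoPro pools (mean log2 change -0.83) and rose in all 3 HiPro pools (0.31), a difference of 1.14. In the second the means were -0.92 and 0.34, a difference of 1.26. In the limma test of that difference, added after seeing the data, the adjusted p was 0.999858 for both (unadjusted 0.0258 and 0.00347). Neither HiPro rise was called. At stage 3 alone the HiPro minus LoPro log2 differences were 0.71 and 0.73. At stage 1 every LoPro array of the second probeset lay above every HiPro array. Groups of 3 arrays were not searched for outlying samples.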

How the results depend on the processing

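Of 1142 values of named members under the alternatives, 1114 kept their direction and side of the threshold, 28 kept the direction but were no longer called, and 0 reversed. These counts are a description. Most named members were picked for a large called change. The UniProt setting repeats the main fit for a single member, so it could not differ. The block and the methods' t-test keep the same log2 change, so they could not reverse a direction. Quantile normalization, median centring and leaving out dim probesets moved no count of called members by over 1.5 times. Of the counts between lines at an unadjusted p under 0.05, the 2 at stage 1 became 1 without dim probesets, and the 1 at stage 4 became 2 with median centring or the floor and 0 without dim probesets. With the plant pool as a replicate block, 7 members were called at stage 2 in LoPro and 11 in HiPro, and with the replicate number as a block 1 member was called between the lines at stage 3. The block changed no other count by over 1.5 times and no call of a named member at stage 4. With a floor at the 10th percentile, LoPro stage 4 against stage 3 gave 2 calls.

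The methods' t-test gave 0, 4, 0 and 0 calls in LoPro for stages 2 and 3 against 1, stage 3 against 2 and stage 4 against 3, and 0, 15, 1 and 0 in HiPro. It called 2 of the other wall probesets in LoPro. Between the lines it passed 0, 1, 5 and 3 members at an unadjusted p under 0.05 at stages 1 to 4. The main fit passed 2, 2, 13 and 1. That test uses only the 6 arrays compared. The UniProt description alone holds fewer members. By it the LoPro counts were 32 for stage 3 against 1 (14.8% of all probesets), 37 for stage 4 against 1 (21.7%) and 21 for stage 3 against 2 (9.07%). The HiPro counts were 26 (13.9%), 35 (24.2%) and 11 (2.77%), with 3 at stage 2 (1.02%). With members by any annotation column, chosen after seeing the data, 75 of 78 were called in LoPro (21.7% of all probesets) and 72 in HiPro (24.2%) at stage 4.

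Leaving out single pools or arrays gave 0 to 9 calls in LoPro for stage 2 against 1, 43 to 51 for stage 3, 54 to 58 for stage 4, 19 to 40 for stage 3 against 2 and 0 to 6 for stage 4 against 3. The HiPro ranges were 0 to 6, 30 to 44, 51 to 57, 0 to 28 and 1 to 11. Between the lines they were 0 to 0 at stages 1, 2 and 4, 0 to 1 at stage 3, and 0 to 0 for the difference in change. Of the 5 other wall probesets, 3 to 5 stayed called in LoPro and 3 to 4 in HiPro. Unless said otherwise the cause was not tested. Signals under 14.5 have no usable order, which limits the size of the XTH falls, of the fall of 1 pectinesterase Glyma01g41820 probeset and of changes from low stage 1 signals. The change of PRP4-like in LoPro ran from -8.07 to -9.60 as single pools or arrays were left out, and that of this pectinesterase probeset moved to -4.58 in HiPro without its stage 4 replicate 2. XTH changes moved by over 1.5 times without single pools or stage 4 arrays of either line, to values from -8.83 to -2.66.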
